A study of Mus musculus with 12 samples.

Results

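HP3, a Rex1-/- line of mouse embryonic stem (ES) cells, was compared with RKPG9, the Rex1+/- line from which it had been obtained. The comparison used the 3 arrays titled HP3 and the 3 titled RKPG9, 6 of the 12 arrays of the series, and was described over the genes that could be named. These were 8457 of the 20280 gene probes, in 6567 genes, of which 6564 gave a test. Both lines derive from E14tg2a ES cells and grow without feeder cells in serum with leukemia inhibitory factor (LIF). RKPG9 carries 1 Rex1 allele in which the start of the open reading frame gave way to a pacEGFP cassette, a fusion of puromycin resistance with green fluorescent protein. HP3 carries that cassette in both alleles and grew out of RKPG9 cells kept in a high dose of puromycin. Each line is 1 clone, so that the loss of the second allele, the drug selection and the cloning cannot be told apart. HP4, another Rex1-/- line obtained from RKPG9, and wild-type EB5, the remaining 6 arrays, are given beside HP3 only where they bear on it.

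Rex1, encoded by Zfp42, is a zinc finger protein related to YY1, a DNA-binding protein that works with polycomb and chromatin remodelling complexes. It is widely used as a marker of undifferentiated ES cells. ES cells in LIF and serum hold a self-renewing state through a network around Oct3/4, Sox2 and Nanog. Some of them shift towards epiblast-like states or states like the 2-cell embryo, each with genes of its own.

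On every array the RNA of the line was labelled with Cy3 and a universal mouse reference RNA with Cy5. A level below is the log2 ratio of the line to that reference, a change is HP3 minus RKPG9 on the log2 scale, and every adjusted p is from 1 limma fit over the 12 arrays. A gene is called higher or lower where its adjusted p was under 0.05, and the text says where 2-fold was passed as well. The dyes were not swapped, and levels of different probes cannot be compared. Cy3 stood well above background at 89.3 to 89.9% of probes on the RKPG9 arrays and at 87.1 to 89.4% on the HP3 arrays. The median Cy3 signal over background was 137 to 140 on the RKPG9 arrays and 115 to 139 on the HP3 arrays. All 6 were read in the same session of spot extraction. Nothing in the labels tells whether a line's 3 arrays stand for different cultures, and the p-values cover only the array-to-array spread, which could be technical. In RNA of whole cultures, fewer cells of a type and less RNA per cell cannot be told apart.

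Zfp42 itself read 6.05, 6.00 and 6.02 on the RKPG9 arrays and 6.12, 5.94 and 5.91 on the HP3 arrays at probe A_65_P04537. The ratios overlapped, and the change was -0.03 (standard error 0.09, adjusted p = 0.84 in limma). Its other probe, A_65_P04151, gave -0.11 (adjusted p = 0.39). Both channels differed between the lines. The mean Cy3 signal was 19466, 20058 and 19573 on the RKPG9 arrays and 7932, 11464 and 8345 on the HP3 arrays, without overlap. The Cy5 signal of the common reference was 1106, 1131 and 1098 against 681, 812 and 697. With the Cy3 channel alone the change was -0.84 (adjusted p = 9.2e-06), and with no background subtraction the change of the ratio was -0.51 (adjusted p = 0.00014), so that no call can be given for Zfp42 in HP3. In HP4 the change of the ratio was -0.58. The mutant allele still makes a transcript that joins part of Rex1 with the cassette, and the place of the probes in it is not given in the sources used here. Nothing about the genotypes can be checked with these values. The ES cell markers Pou5f1, which encodes Oct3/4, and Nanog were well above background on all 6 arrays. Pou5f1 read 4.43, 4.43 and 4.44 in RKPG9 and 4.62, 4.44 and 4.21 in HP3, and Nanog read 2.46, 2.42 and 2.49 and 2.36, 2.51 and 2.43. Both overlapped between the lines (adjusted p = 0.98 and 0.89). Of 7 markers of extraembryonic endoderm, Gata6, Sox7, Sox17, Afp and Apoa1 were well above background in Cy3 on all 6 arrays and Gata4 and Ttr on none. The mean Cy3 signals lay close, at 459 to 471 for Gata6 and 466 to 471 for Sox7. They were 453 to 469 for Ttr and 448 to 456 for Gata4. These flags therefore do not tell expressed from silent genes among these 4. Of 5 trophoblast markers Cdx2 and Gata3 were well above background on all 6 arrays and Tpbpa on none, with Prl3d1 and Hand1 on some. Among these 12, Gata3 was lower in HP3 (-0.23) and the others did not pass, and their part in the results was not tested.

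Few genes differed by much. Of 20273 probes tested, 30 were higher (0.148%) and 27 lower (0.133%) in HP3 by more than 2-fold, and the arrays of the lines did not overlap at any of these 57. Of them 28 had a gene symbol, 14 higher in 13 genes and 14 lower in 14 genes. By the adjusted p alone 2560 probes were higher (12.6%) and 2042 lower (10.1%), and 93.0% of these 4602 changed by less than 1.5-fold. The arrays of the lines did not overlap at 8038 probes (39.6%). With median centring in place of loess, 16 probes were higher and 25 lower by more than 2-fold, so that the higher share of calls was 39.0% instead of 52.6%. The number past 2-fold also followed the background correction, from 8 higher and 7 lower with no subtraction to 99 and 72 with the scanner software's processed signals. The largest changes without a name were 2.31 at probe A_65_P07441 and -1.66 at probe A_65_P14464, which the files describe only as unknown and as intronic.

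**Figure D1:**
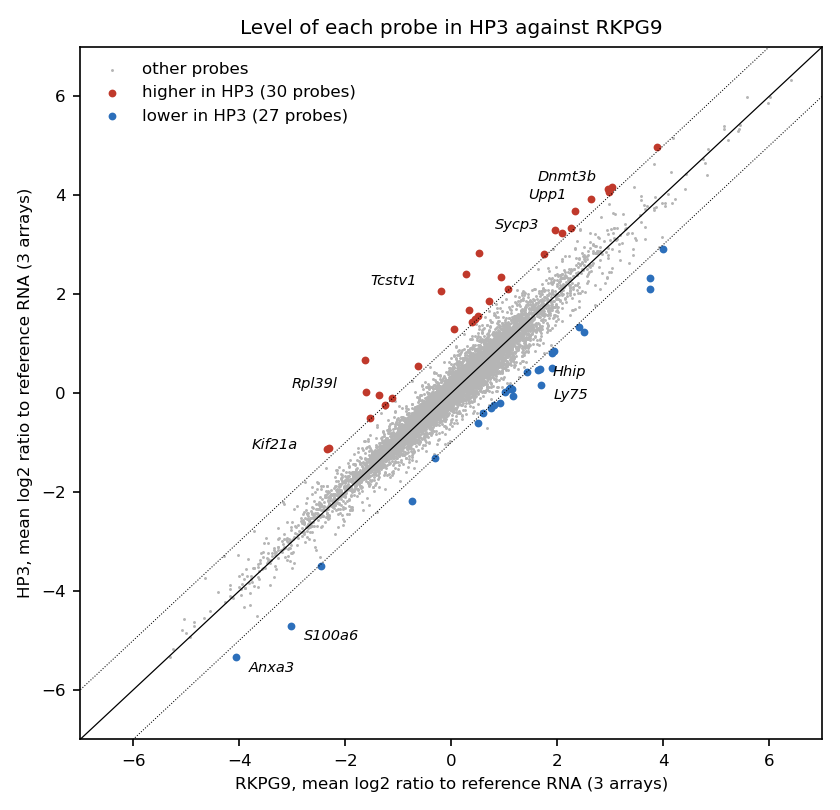
Mean log2 ratio to the reference RNA of each probe in RKPG9 (horizontal) and HP3 (vertical), 3 arrays each, with dotted lines at a 2-fold difference. The 30 red and 27 blue probes passed the adjusted p and the 2-fold threshold, and the other probes lie along the diagonal.

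The largest rise of a named gene was that of Tcstv1, a gene of the 2-cell embryo that is also switched on in rare ES cells. It read -0.13, -0.21 and -0.26 on the RKPG9 arrays and 1.93, 2.20 and 2.06 on the HP3 arrays. The HP3 arrays lay far above those of RKPG9, by 2.26 (standard error 0.06, adjusted p = 2.3e-09), a 4.79-fold difference. Rpl39l, a copy of a ribosomal protein gene that is best known from male germ cells, read -1.63, -1.57 and -1.62 in RKPG9 and 0.03, -0.01 and 0.02 in HP3. Its change was 1.62 (standard error 0.03, adjusted p = 2.4e-10), with little spread in either line. Upp1, uridine phosphorylase of pyrimidine salvage, read 2.68, 2.68 and 2.54 in RKPG9 and 3.85, 3.98 and 3.95 in HP3, a change of 1.30 (standard error 0.07). Kif21a, a kinesin motor, read -2.39, -2.31 and -2.33 in RKPG9 and -1.11, -1.16 and -1.13 in HP3. Its arrays were tightly grouped, and the change was 1.21 (standard error 0.03).

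Dnmt3b, a de novo DNA methyltransferase that increases when ES cells move towards the epiblast, read 3.12, 3.09 and 2.91 in RKPG9 and 4.12, 4.21 and 4.15 in HP3. Its change was 1.12 (standard error 0.07, adjusted p = 4.5e-07), and its second, brighter probe gave 1.09. Sycp3, a structural protein of meiotic chromosomes, read 2.16, 2.01 and 2.09 in RKPG9 and 3.01, 3.50 and 3.18 in HP3, a change of 1.15 (standard error 0.14, adjusted p = 0.00011). The HP3 arrays spread over more than those of RKPG9, and the reference held no signal well above background at this probe, so that the ratio follows Cy3. Its direction turned in the deposited value table, where the change was -1.70 (adjusted p = 0.017), and the cause was not tested. Another gene with a part in meiosis, 4930447C04Rik, read 1.99, 1.94 and 1.96 in RKPG9 and 3.03, 3.57 and 3.29 in HP3 (change 1.33). The other rises among the 15 largest were those of Ddx3y (1.17 at its dimmer probe, 0.17 at its brighter one, which did not pass), the fatty acid transporter Slc27a2 (1.09), the cell cycle inhibitor Cdkn1c (1.07), the zinc finger gene Rex2 (1.03), the survival kinase Pim2 (1.03), the actin-binding protein Cnn2 (1.03), 2610042L04Rik (1.00) and the channel gene Trpc2 (0.98). Trpc2 changed at 1 of its 3 probes, the others giving 0.11 and -0.07.

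The largest fall was that of S100a6, a small calcium-binding protein. It read -2.95, -3.03 and -3.09 on the RKPG9 arrays and -4.66, -4.65 and -4.80 on the HP3 arrays, all HP3 arrays lying below those of RKPG9. The change was -1.68 (standard error 0.07, adjusted p = 2.7e-08), with the reference saturated on all 6 arrays. Ly75, an endocytic receptor, read 1.73, 1.67 and 1.71 in RKPG9 and 0.09, 0.21 and 0.20 in HP3, and fell by 1.54 (standard error 0.05). Anxa3, which binds membranes in a calcium-dependent way, read -4.07, -4.04 and -4.08 in RKPG9 and -5.37, -5.34 and -5.32 in HP3, and fell by 1.28 (standard error 0.05). Each of these falls was larger than 2-fold, and within each line the arrays differed by little.

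Hhip, an antagonist of hedgehog ligands that hedgehog signalling itself switches on, read 1.68, 1.56 and 1.79 in RKPG9 and 0.26, 0.56 and 0.61 in HP3, and fell by 1.20 (standard error 0.09, adjusted p = 2.2e-06), with the reference not well above background on the HP3 arrays. Ptgr1, a reductase of prostaglandins and reactive aldehydes, read 1.75, 1.58 and 1.57 in RKPG9 and 0.46, 0.48 and 0.48 in HP3, and fell by 1.16. Slc38a4, an imprinted amino acid transporter, read 2.47, 2.41 and 2.36 in RKPG9 and 1.18, 1.47 and 1.38 in HP3, and fell by 1.07, while its brighter probe fell by 0.96. The other falls among the 15 largest were those of Ica1 (-1.09), the PCNA-binding protein gene Pclaf (-1.06), the fatty acid ligase Acsl1 (-1.05), the quinone reductase Nqo1 (-1.02), Sult6b1 (-1.02), the heparan sulfate enzyme Hs3st3b1 (-1.01), glutathione reductase Gsr (-1.01), Slc66a2 (-1.01) and Pakap, which fell by 1.00. Hhip, Acsl1, Nqo1 and Gsr lie on chromosome 8, the chromosome of Zfp42.

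**Figure D2:**
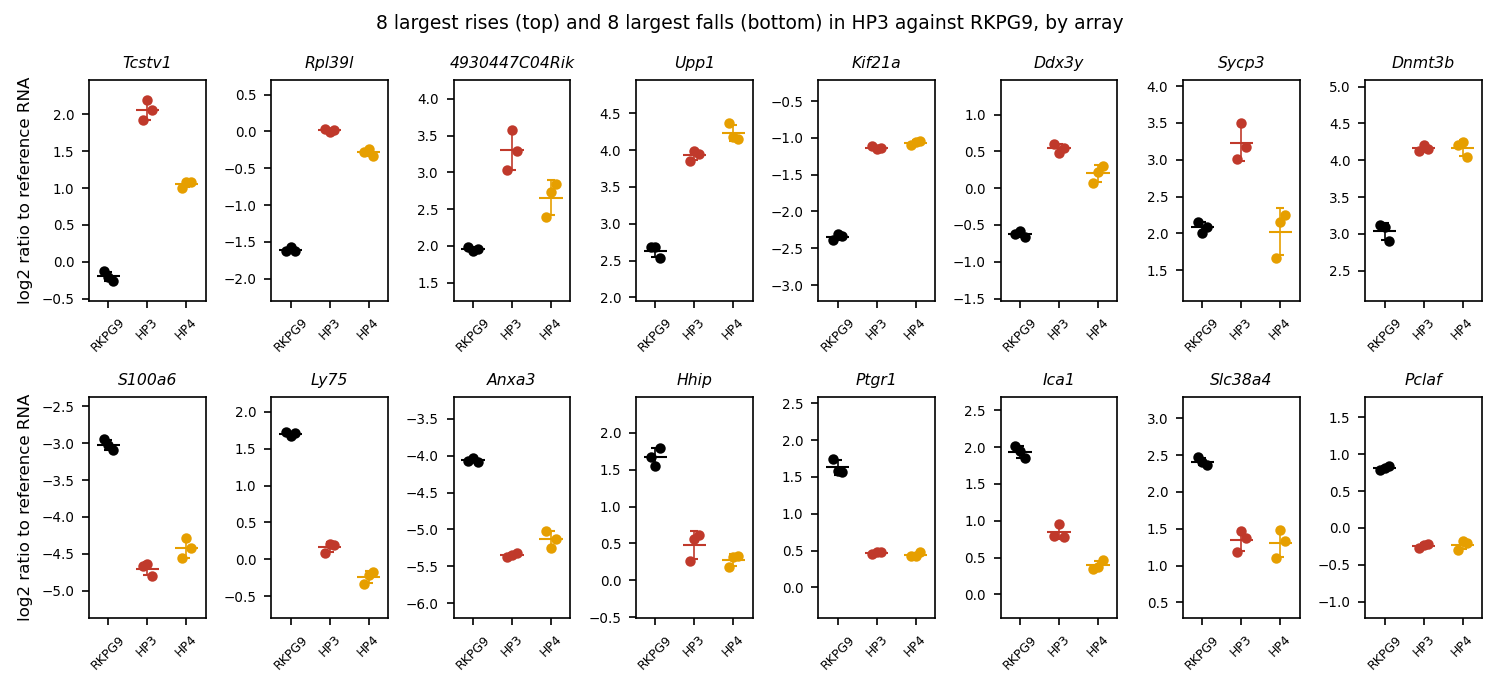
Log2 ratio to the reference RNA on each array of RKPG9 (black), HP3 (red) and HP4 (orange) for the 8 genes with the largest rise (top) and the largest fall (bottom) in HP3 against RKPG9. Lines are means and bars SD of 3 arrays, and every panel spans the same range of 3 log2 units. In every panel the HP3 arrays lie apart from the RKPG9 arrays, which follows in part from choosing the genes by this change. HP4 lies with RKPG9 for Sycp3.

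The promoters of these genes were searched for the core letters bound by YY1, GCCATNTT, in either strand, since the DNA-binding fingers of Rex1 resemble those of YY1. RefSeq promoters of GRCm38.p6, from 250 bases before to 50 after a start, were found for 13 of the 15 genes with the largest rise and 12 of the 15 with the largest fall. The motif stood in 1 of the 13 and 1 of the 12, against 6.96% of 27025 genes in the table. The E-box CACGTG, known from promoters of meiotic genes, was searched as well, and no site of one overlapped a site of the other in the promoters shown. It stood in 3 of the 13 and 3 of the 12, against 8.09% of all genes. The promoters of Sycp3 and Slc38a4 are shown as those of the 1 rise and the 1 fall with the YY1 core, which stands in capitals as read on either strand, as does CACGTG. That of Sycp3 lies at chr10:88459337-88459636 on the plus strand and that of Slc38a4, 1 of 3 in the table, at chr15:97020310-97020609 on the minus strand.
Sycp3: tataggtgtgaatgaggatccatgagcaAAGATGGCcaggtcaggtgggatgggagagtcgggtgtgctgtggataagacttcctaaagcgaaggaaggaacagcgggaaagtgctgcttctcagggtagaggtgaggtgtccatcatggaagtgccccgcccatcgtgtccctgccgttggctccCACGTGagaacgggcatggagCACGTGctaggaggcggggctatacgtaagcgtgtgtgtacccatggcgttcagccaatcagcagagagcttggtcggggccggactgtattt
Slc38a4: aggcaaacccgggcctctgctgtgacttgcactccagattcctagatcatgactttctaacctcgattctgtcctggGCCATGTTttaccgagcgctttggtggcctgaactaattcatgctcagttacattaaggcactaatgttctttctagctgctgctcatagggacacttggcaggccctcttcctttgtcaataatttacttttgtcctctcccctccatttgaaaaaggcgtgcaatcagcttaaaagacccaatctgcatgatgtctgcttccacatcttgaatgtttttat
A match of letters is no proof of binding, and binding was not measured on these arrays.

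Genes of a single chromosome were lower together. Of the 342 named genes of chromosome 8 that were tested, at the brightest probe of each, 222 (64.9%) were lower in HP3 and 17 (4.97%) higher, against 16.0% lower and 18.0% higher among all 6564 named genes. On the other autosomes and the X chromosome the lower share was 9.35 to 17.4%. The median change of the chromosome 8 genes was -0.29 (-0.17 with no background subtraction), with quartiles at -0.46 and -0.07, and 287 of them (83.9%) lay below 0. The medians of the other 19 chromosomes ran from -0.02 to 0.03. Among chromosome 8 genes brighter than the median gene, 153 of 189 were lower and the median change was -0.40, while among the dimmer ones 69 of 153 were lower and the median was -0.13. On all other chromosomes 568 of 3093 brighter and 260 of 3129 dimmer genes were lower, with medians of 0.02 and 0.01. Brighter genes were thus called lower more often there as well. Chromosomes were taken by gene symbol from the RefSeq table of GRCm38.p6.

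**Figure D3:**
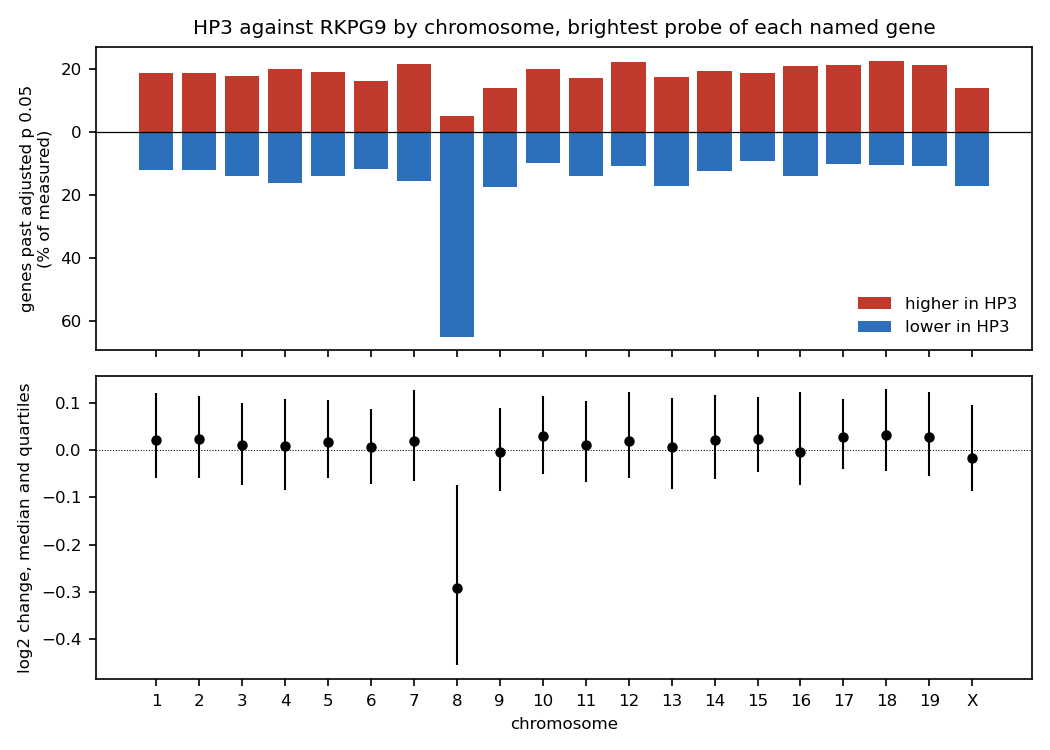
Share of the named genes of each chromosome that were higher (red, upward) or lower (blue, downward) in HP3 than in RKPG9 at an adjusted p under 0.05 (top), and the median change with its quartiles (bottom). On chromosome 8 64.9% of the genes were lower, and its median of -0.29 lies below the quartiles of every other chromosome.

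The genes lay lower along the whole chromosome. Cut into 8 successive runs of 42 or 43 genes, the medians were -0.30, -0.30, -0.18, -0.35, -0.14, -0.38, -0.36 and -0.27, and in each run between 20 and 35 genes were lower. The steepest of them were Hhip and Acsl1, described above, and Nqo1, which read -0.17, -0.33 and -0.39 in RKPG9 and -1.25, -1.39 and -1.32 in HP3. Others came from unrelated pathways. Msmo1, a sterol oxidase of cholesterol synthesis, fell by 0.76. Cox4i1, a subunit of cytochrome oxidase, fell by 0.71. Fgfr1, an FGF receptor, fell by 0.47, and Orc6, a subunit of the replication origin complex, by 0.52. Against them Bst2, an interferon-induced membrane protein, rose by 0.76 with 2 usable HP3 arrays, the largest rise on the chromosome.

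Set against the mean of each gene over all 12 arrays, the median of the chromosome 8 genes was 0.19, 0.19 and 0.18 on the RKPG9 arrays and -0.10, -0.11 and -0.08 on the HP3 arrays. It was -0.08, -0.09 and -0.08 on the HP4 arrays and -0.01, 0.02 and 0.00 on the EB5 arrays, which were extracted in another session. The other autosomes lay between -0.03 and 0.06 on every array. RKPG9 was thus the line in which these genes stood high, and HP3 and HP4 did not differ by much (median of HP4 minus HP3, 0.01). DNA was not measured on these arrays. Without the chromosome 8 genes, 30 probes were still higher and 23 lower by more than 2-fold, and 828 of 6222 named genes (13.3%) were lower and 1166 (18.7%) higher by the adjusted p.

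**Figure D4:**
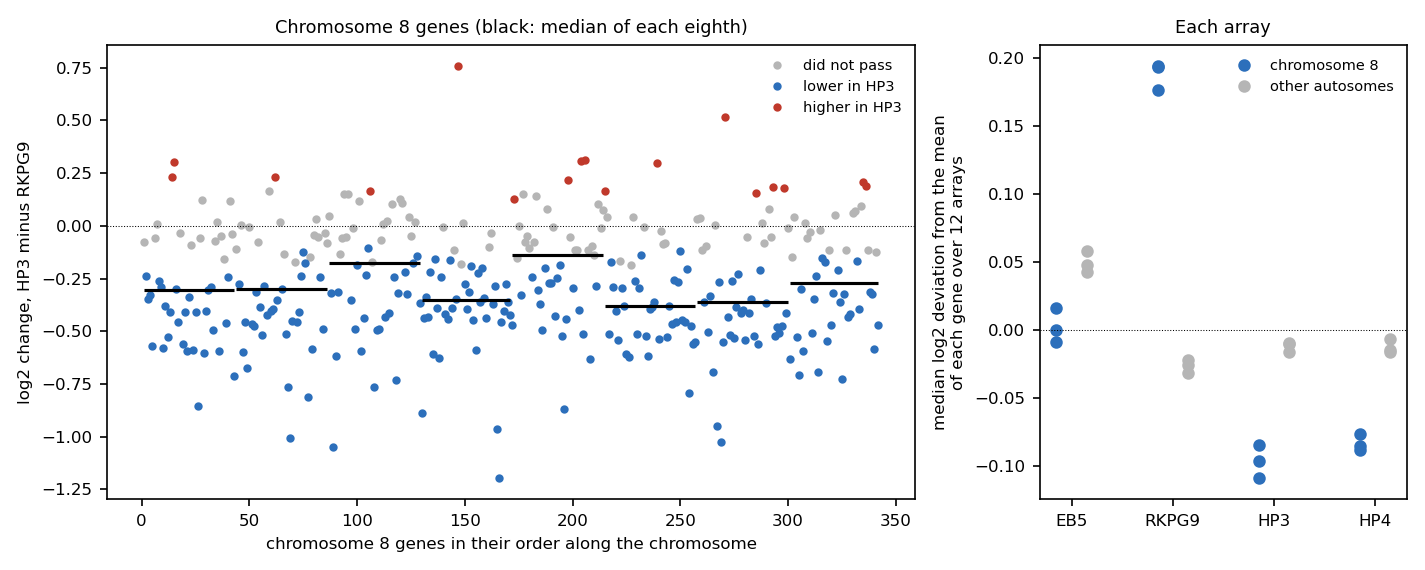
Left, the change in HP3 against RKPG9 of 342 genes in their order along chromosome 8, with blue for lower, red for higher and gray for genes that did not pass, and black lines for the median of each successive run. Right, the median deviation on each array of the chromosome 8 genes (blue) and of the genes of the other autosomes (gray) from their mean over 12 arrays; the 3 RKPG9 arrays stand highest, at 0.18 to 0.19.

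Genes of the pluripotency network passed in both directions. Of 36 measured genes of the list of pluripotency factors and ES cell markers, 9 were higher (18.0% of all named genes), 5 lower (16.0% of all) and 22 did not pass, with a median change of 0.02 (0.01 for all named genes) that turned to -0.09 with no background subtraction. Each of these changes was smaller than 2-fold. Klf4 rose by 0.20, whereas Klf2, a chromosome 8 gene, fell by 0.31 and Klf5 by 0.22. Epcam, an adhesion molecule of epithelia and ES cells, read 0.71, 0.65 and 0.64 in RKPG9 and 1.36, 1.42 and 1.35 in HP3, and rose by 0.71. Tex19.1, which guards germ cells against retrotransposons, rose by 0.67. Dppa2, a developmental pluripotency gene, rose by 0.31, and Tcl1, a cofactor of the kinase AKT, fell by 0.41. Fbxo15, Sox15, Dppa5a, Fgf4 and Myc did not pass, at -0.11, 0.04, 0.29, 0.02 and 0.09.

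Of 17 genes of nodal, activin and BMP signalling 5 were lower (29.4%) and 1 higher (5.88%), with a median of -0.09. Among all named genes 16.0% were lower and 18.0% higher, and the counts of the lists that follow stand against these shares. Whether a list departs from them was not tested. The ligand Bmp4 read 0.00, 0.01 and 0.02 in RKPG9 and -0.50, -0.52 and -0.53 in HP3, and fell by 0.53 (standard error 0.03). Id2 and Id3, immediate targets of BMP that hold back differentiation, fell by 0.54 and 0.46, and the signal transducers Smad1 and Smad3 by 0.37 and 0.24. Id1, the third such target in the list, did not pass, at -0.17. Smad1 lies on chromosome 8. The gene that rose was Smad5, another signal transducer, by 0.13. Smad4 and the receptor gene Bmpr1a did not pass (-0.04 and -0.09).

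In the hedgehog list 2 of 11 genes were lower (18.2%, against 16.0% of all named genes) and the other 9 did not pass. Beside Hhip, the receptor Ptch1, also a target of the pathway, read 3.37, 3.38 and 3.34 in RKPG9 and 2.59, 2.66 and 2.64 in HP3, and fell by 0.73 (standard error 0.04, adjusted p = 7.3e-08). The ligands Shh and Dhh did not pass (-0.03 and -0.09). Of 18 genes of Wnt signalling 5 were higher (27.8%) and 2 lower (11.1%). Tcf7, a transcription factor at the end of the pathway, rose by 0.90 at its brightest probe and by 0.16 at its other one. Of 25 genes of FGF and ERK signalling 4 were higher (16%) and 6 lower (24%). The early response gene Egr1 read -4.62, -4.64 and -4.70 in RKPG9 and -3.69, -3.71 and -3.86 in HP3, and rose by 0.90, and the feedback inhibitor Spred2 rose by 0.49. Other members went the other way. Hbegf fell by 0.33 and Etv4 by 0.30, as did Fgfr1 and Dusp4 of chromosome 8, by 0.47 and 0.24. Dusp6 and Fos did not pass (0.00 and 0.07). The receptor gene Lifr fell by 0.38, with 1 of 3 HP3 arrays well above background, in a list of LIF signalling in which 3 of 14 genes were lower and 1 higher.

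Genes of the primed epiblast and neuroectoderm had the largest median change of the lists, 0.36, which was 0.11 with no background subtraction. Of 17 measured, 9 were higher, 1 was lower and 7 did not pass. Otx2, a homeobox factor of the epiblast and forebrain, read 3.46, 3.40 and 3.51 in RKPG9 and 4.14, 4.20 and 4.14 in HP3, and rose by 0.70 (standard error 0.08, adjusted p = 6.8e-05), a call that was lost with the scanner software's processed signals, at 0.30 (adjusted p = 0.34). Stmn2, a microtubule regulator of neurons, read 1.23, 1.25 and 1.26 in RKPG9 and 2.14, 2.05 and 2.04 in HP3, and rose by 0.83, and by 0.89 at its other probe. The neural transcription factors Pax6, Pou3f1 and Sox11 rose by 0.54, 0.52 and 0.40. The Pax6 probe was dim, so that its change rests on a small difference in signal. Its mean Cy3 signal was 469, 471 and 477 in RKPG9 and 491, 514 and 491 in HP3, over a median background of 403 to 406. Dnmt3a, the partner of Dnmt3b, rose by 0.36 and did so at 3 of its 4 probes. Fgf5, a marker of the primed epiblast, did not pass, at 0.00, and Map2, a protein of neuronal microtubules, fell by 0.42.

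The other germ layers and the extraembryonic lineages gave a mixed picture. In the primitive streak and mesoderm list 3 of 21 genes were higher and 2 lower, and T was at 0.00. Foxa2, a factor of endoderm and axial mesoderm, read 0.64, 0.48 and 0.55 in RKPG9 and -0.46, -0.30 and -0.35 in HP3, where no array was well above background, and was at least 1.62-fold lower (adjusted p = 6.9e-07). In the extraembryonic endoderm list 2 of 25 were higher and 6 lower. Of these, the basement membrane genes Col4a1 and Col4a2 (-0.30 and -0.46) lie on chromosome 8, and Nid1 and Lama1 (-0.39 and -0.21) on others. Basement membrane genes did not all fall, since the laminin gene Lamb1 rose by 0.59 and Lamc1 did not pass (-0.07). Sox7, Afp, Gata6, Dab2 and Plat did not pass.

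Of 28 genes of trophoblast and simple epithelium 8 were lower and 2 higher, with a median of -0.08. Beside Anxa3, the homeobox gene Rhox6 read 2.71, 2.74 and 2.69 in RKPG9 and 1.62, 1.89 and 1.85 in HP3, and fell by 0.93, and the junction protein gene Perp fell by 0.66. The 2 that rose, Dsp and Pkp2, are junction protein genes too, each at 0.21. Krt18 and Cdx2 did not pass (-0.08 and 0.01). The list of mesenchymal and contractile cells was split, with 9 of 47 genes higher and 9 lower. Mylpf, a myosin light chain, fell by 0.67 and Lgals1, a galectin, by 0.42 (reference saturated on all 3 RKPG9 arrays and 1 of 3 HP3 arrays), whereas the filament protein gene Vim rose by 0.47 at a level far below the reference, which was saturated on all 6 arrays. The matrix genes Col1a2 and Dcn, which mark fibroblasts, did not pass (0.12 and 0.21).

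Imprinted genes changed in both directions, 11 of 29 higher and 6 lower. Cdkn1c, which is expressed from the maternal allele, read 1.71, 1.73 and 1.80 in RKPG9 and 2.77, 2.84 and 2.85 in HP3. Meg3, a maternally expressed noncoding RNA, rose at 3 of its 4 probes, by 0.90 at the brightest and by 0.63 and 0.54 at the others, and its neighbour Dlk1, expressed from the paternal allele, rose by 0.58. Igf2, a growth factor expressed from the paternal allele, read -0.34, -0.31 and -0.32 in RKPG9 and -1.19, -1.26 and -1.24 in HP3, with 1 HP3 array well above background, and fell by 0.90, while its other probe gave 0.08. Peg3 and Igf2r rose by 0.57 and 0.42, and Mest fell by 0.33.

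In the list of genes of the 2-cell embryo and of germ cells, 8 of 23 were higher and 2 lower. Beside Tcstv1 and Sycp3, the meiotic genes Sycp2, Hormad1 and Sycp1 rose by 0.67, 0.49 and 0.36, and the RNA-binding protein gene Dazl by 0.65. The other 13 did not pass, among them the meiotic genes Rec8, Smc1b and Tex15 (-0.06, 0.05 and -0.13). Rhox5, an X-linked homeobox gene, read 0.51, 0.51 and 0.56 in RKPG9 and 1.27, 1.28 and 1.33 in HP3, and rose by 0.77, the opposite direction from its neighbour Rhox6. Of the 6 that rose and had a promoter in the table, 3 held the E-box, as did 5 of the 12 others.

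In the polycomb and YY1 list 8 of 31 genes were higher (25.8%, against 18.0% of all named genes), 2 lower and 21 did not pass, with a median of 0.03. Phc1, a subunit of the ring complex, rose by 0.57 and Mtf2, a partner of the methylating complex, by 0.39, while the core genes Eed and Suz12 did not pass (0.06 and 0.03). Yy1 was 0.03 at its brightest probe (adjusted p = 0.56) and rose by 0.26 at the other. Of 35 regulators bound by polycomb in ES cells 4 were higher, 3 lower and 28 did not pass. In the list of DNA methylation 4 of 17 genes were higher, Dnmt3b with them, 2 lower and 11 did not pass, with a median of 0.05. The histone methyltransferase gene Suv39h1 fell by 0.56 at its brightest probe, though it was 0.01 with the processed signals, but was higher by 0.21 at its other one. Mbd3 did not pass (0.13).

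**Figure D5:**
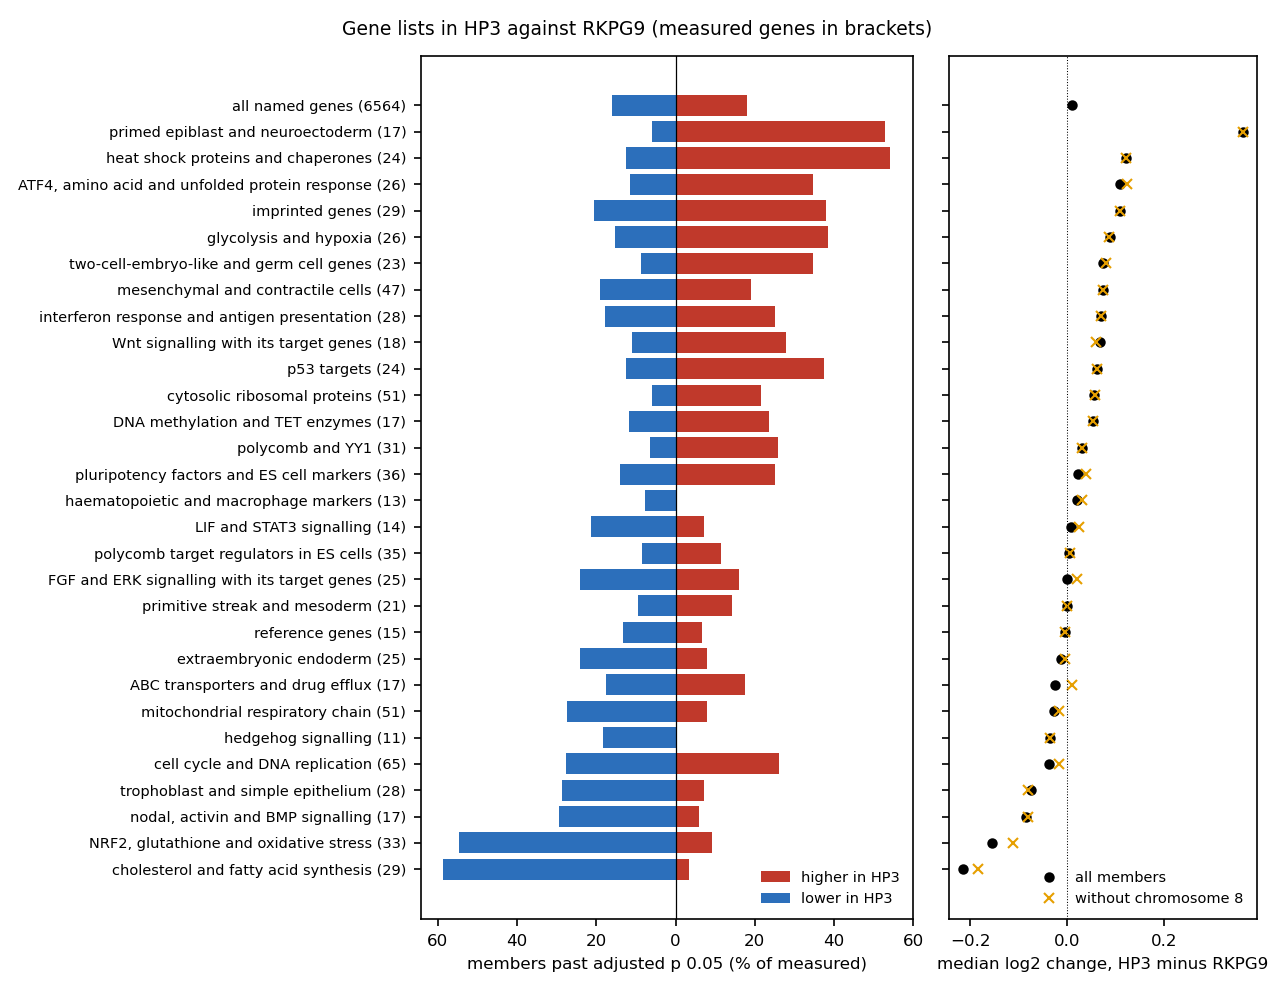
For each gene list, the share of its measured genes that were higher (red) or lower (blue) in HP3 than in RKPG9 at an adjusted p under 0.05, and on the right the median change of all measured genes (black) and without those of chromosome 8 (orange crosses). All named genes, at 18.0% higher and 16.0% lower, stand on top, and the medians run from 0.36 for primed epiblast and neuroectoderm to -0.21 for cholesterol and fatty acid synthesis.

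The clearest shifts in metabolism were downward. In the list of cholesterol and fatty acid synthesis 17 of 29 genes (58.6%) were lower and 1 higher, with a median of -0.21 that was -0.08 with no background subtraction, and 15 lower with a median of -0.18 without its chromosome 8 genes. The desaturase gene Scd2 read -2.52, -2.45 and -2.45 in RKPG9 and -3.28, -3.36 and -3.33 in HP3, and fell by 0.85. Srebf2, a transcription factor that drives cholesterol synthesis, fell by 0.25. Lss, a cyclase of the pathway, was the gene that rose (0.18).

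In the list of NRF2, glutathione and oxidative stress 18 of 33 genes (54.5%) were lower and 3 higher, with a median of -0.15 that was -0.09 with no background subtraction. Its 6 chromosome 8 genes, Nqo1, Gsr, Mt1, Mt2, Prdx2 and Hmox1, were all lower, and of the others 12 of 27 were lower with a median of -0.11. Off that chromosome, Txn1, thioredoxin, fell by 0.37, Gclc, the rate-limiting enzyme of glutathione synthesis, by 0.25, and Pgd, of the pentose phosphate pathway, by 0.37. Gpx4, a peroxidase that protects membrane lipids, read 0.13, 0.09 and 0.13 in RKPG9 and 0.73, 0.78 and 0.78 in HP3, and rose by 0.65. Nfe2l2, which encodes NRF2, did not pass (-0.09). In the respiratory chain 14 of 51 genes were lower and 4 higher, with a median of -0.03.

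Chaperones went the other way, with 13 of 24 genes (54.2%) higher and 3 lower and a median of 0.12. Hspa4 rose by 0.48, Dnajb6 by 0.41, and Cct3 of the cytosolic chaperonin by 0.27, while Dnaja2, on chromosome 8, fell by 0.44. Of 26 genes of the ATF4, amino acid and unfolded protein response 9 were higher and 3 lower (median 0.11), with rises of 0.73 for Trib3, a pseudokinase induced by stress, and 0.85 for Ddit4, an inhibitor of mTORC1. Of 24 p53 targets 9 were higher and 3 lower, and Pmaip1, a cell death gene, rose by 0.51, whereas Cdkn1a and Mdm2, targets of the pathway that are used as its readout, did not pass (-0.04 and 0.02). In glycolysis and hypoxia 10 of 26 were higher and 4 lower, with the growth factor Vegfa at 0.58 and the glucose transporter Slc2a1 at 0.51. Vegfa was dim in Cy3, at 516 to 527 in RKPG9 and 513 to 572 in HP3, over a median background of 403 to 406. Its reference signal was 4957 to 5112 in RKPG9 and 3226 to 4743 in HP3. The Cy3 signals of Slc2a1 overlapped between the lines as well, and its reference signal was lower on each HP3 array. Of 17 ABC transporters 3 were higher and 3 lower, and the multidrug gene Abcb1b did not pass (0.07).

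The cell cycle list was split as well. Of 65 in the list 17 were higher and 18 lower, with a median of -0.04. Enzymes of DNA precursor synthesis fell, Tk1 by 0.70 and Rrm2 by 0.48, as did the licensing factor gene Cdc6 by 0.35, whereas the mitotic genes Plk1, Cdc20 and Aurka rose by 0.31, 0.30 and 0.29. These genes were picked from the list after their values were seen, and no test was made of them as groups. Of 51 cytosolic ribosomal protein genes 11 were higher and 3 lower, with a median of 0.06 that turned to -0.03 with the processed signals. Of 28 genes of interferon response and antigen presentation 7 were higher and 5 lower. Irf1, a transcription factor of the response, rose by 0.63, whereas Psmb10, of chromosome 8, fell by 0.20. At Ifitm3, another gene of the list, the Cy3 signal was 4071, 3758 and 3924 in RKPG9 and 1759, 2367 and 1837 in HP3. The reference signal of Ifitm3 was also lower on each HP3 array. Of 13 blood cell markers 1, Klf1 of chromosome 8, was lower and the other 12 did not pass. Of 15 reference genes 2 were lower and 1 higher, and Gapdh and Hprt were at -0.02 and 0.00.

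Of 3 Y-linked genes, looked at after their values were seen, 1 was higher in HP3 at its brightest probe and another only at its dimmer one. Ddx3y, a Y-linked RNA helicase gene, read -0.63, -0.58 and -0.66 in RKPG9 and 0.60, 0.47 and 0.55 in HP3 at the dimmer probe A_65_P02092, whose description in the files is unknown, and -0.25, -0.18 and -0.26 and -0.02, -0.09 and -0.06 at its brighter probe (change 0.17, adjusted p = 0.058). Eif2s3y, a Y-linked translation factor gene, read 1.85, 1.79 and 1.81 in RKPG9 and 2.47, 2.58 and 2.51 in HP3, a rise of 0.70 (adjusted p = 4.5e-07). Kdm5d, a demethylase gene of the same chromosome, read -0.33, -0.34 and -0.32 and -0.36, -0.30 and -0.30 and overlapped (adjusted p = 0.86). HP4 minus RKPG9 was 0.83 and 0.19 at these probes of Ddx3y and 0.55 for Eif2s3y.

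HP4 was set against the same 3 RKPG9 arrays, so its changes are not independent of those of HP3, and the difference between the lines is tested by HP4 minus HP3. In that test 5 probes passed 2-fold (0.0247% of 20273), each of them lower in HP4, with 3 of 6563 named genes (0.0457%) at their brightest probe, Tcstv1, Sycp3 and Mal, and by the adjusted p 2778 were higher and 2990 lower. Tcstv1 changed by 1.25 in HP4 against 2.26 in HP3, and the lines differed by -1.01 (adjusted p = 4.8e-06). Sycp3 changed by -0.06 in HP4, and the lines differed by -1.20 (adjusted p = 0.0002). Mal, a membrane proteolipid gene named after its values were seen, differed by -1.02 (adjusted p = 0.01). Rhox5 changed by -0.12 in HP4 and 0.77 in HP3 (difference -0.89, adjusted p = 5.0e-07), and Id2 by -0.01 and -0.54 (difference 0.53, adjusted p = 2.2e-06). Klf4 was -0.34 in HP4 and 0.20 in HP3 (difference -0.54, adjusted p = 2.2e-05). For others the 2 lines lay close, with Dnmt3b at 1.13 in HP4 and 1.12 in HP3 (difference 0.00, standard error 0.07), Pclaf at -1.04 and -1.06 (difference 0.01, standard error 0.04) and Ptgr1 at -1.19 and -1.16 (difference -0.03, standard error 0.05).

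Wild-type EB5 was set beside the pair, although its 3 arrays were extracted in another session with a different background setting. Of the 30 genes with the largest changes, the EB5 mean lay nearer to the mean of HP3 than to that of RKPG9 in 22, 13 of the 15 rises and 9 of the 15 falls. Hhip was one of them, at 0.07, 0.18 and 0.00 on the EB5 arrays against 0.26, 0.56 and 0.61 in HP3, and Foxa2, at -0.21, -0.21 and -0.10 against -0.46, -0.30 and -0.35, lay likewise, outside these 30. Tcstv1 read 2.03, 1.90 and 1.94 in EB5 and S100a6 -3.18, -3.05 and -3.17. These values are a description, since the sessions and the lines cannot be told apart. The 30 genes were also chosen by their change between HP3 and RKPG9, and no such count was made over all named genes. The count of 22 therefore cannot tell which line departs from EB5.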

How the data were processed

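12 arrays of the NIA Mouse 22K design (4 lines, 3 arrays each) were analysed, and every group was taken from the array titles. The deposited scanner files, per the file headers made with Agilent Feature Extraction 7.5.1, hold the mean intensity and the median local background of each spot in Cy3 (line) and Cy5 (reference), with flags of the software as other values and a log10 ratio that served only to find the direction of the value table. The deposited value table holds log10 levels by the authors, and served only as an alternative. The log10 table was turned to log2.

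The intensity values were corrected with normexp (offset 50), normalised by loess within each array in limma 3.58.1 (R 4.3.3), and averaged per probe, without control and outlier spots. One limma fit over 12 arrays (8 residual degrees of freedom) gave moderated tests with Benjamini-Hochberg adjustment over 20273 probes. A call past both thresholds needed an adjusted p under 0.05 and more than 2-fold. The mean log2 signals set the brightest probe of a gene. The probes gave symbols for 8457 of 20280, of which 4126 were updated through a RefSeq table. Named were the 15 largest rises and falls, and genes of fixed lists and markers, and a few chosen after their values were seen. The members and lists were chosen with earlier results of these data known. On data simulated for HP3 against RKPG9 with 20280 probes, 49 of 50 changes of -1.3 (log2), 50 of 50 of 1.5 and of -2.5, and 0 of 50 of 0.5 were called past both thresholds, and 0 of 20073 unchanged probes. Changes of 0.5 and unchanged probes lie under the 2-fold threshold, so that their counts were largely set by it. Calls by the adjusted p alone were not checked in this way. At a probe not well above background on any array of a line, a fold is a lower bound that sets the mean of the brighter line against the lowest signal well above background. Alternatives were other background corrections, scalings, signal columns, filters, fits and arrays left out. A few genes of the lists are not reported here by name.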

Additional observations from a re-analysis of the deposited data

Results flagged for a closer look

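The difference between the Rex1-/- lines passed both thresholds at 3 genes. Sycp3 was lower in HP4 than in HP3 by a change of -1.2, Mal by a change of -1.02 and Tcstv1 by a change of -1.01, each tested by HP4 minus HP3 in limma. The cause was not tested.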

How the results depend on the processing

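More than 2-fold, 8 probes were higher and 7 lower with no background subtraction, 69 and 51 with an offset of 0, 99 and 72 with the processed signals, 111 and 70 in the deposited value table, and 16 higher with median centring. By the adjusted p alone 2057 probes differed in Cy3 by itself and 3066 after median centring. With each array left out in turn, 30 to 35 probes were higher, 25 to 28 lower and 3664 to 4227 different by the adjusted p. The replicate numbers did not pair the arrays, since deviations of same-numbered arrays correlated at -0.03, 0.08 and 0.08. With the replicate block 30 probes were higher, 27 lower and 4590 different. Of 137 genes, 105 kept direction and call under every alternative, and of 2599 gene values under an alternative 60 lost the call, 21 gained it and 3 turned. Suv39h1 turned to 0.0141 with the processed signals and 0.0142 in the value table, and Sycp3 to -1.70 in the value table. The median of 9 of the 29 lists changed sign under some alternative. Chosen after seeing the data, alternatives for the median of the chromosome 8 genes gave -0.37 with the processed signals and in the value table, -0.17 with no background subtraction, -0.28 in the Cy3 channel and -0.34 with median centring, while the other chromosomes lay between -0.03 and 0.01. The cause of these changes was not tested.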
